A study of Mus musculus with 2 samples.

Results

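The transmembrane chemokine gene Cxcl16, its receptor gene Cxcr6, and Adam10 and Adam17, which encode the proteases that cut CXCL16 from the cell surface, were followed across the spots of orthotopic mouse pancreatic tumors. These 4 genes were chosen by symbol among the 19465 genes of the probe set, and all 4 had counts in both libraries. No measured value entered the rule, but earlier results of these data were known when the genes were chosen. The tumors were allografts of KPC cells, a mouse pancreatic cancer line, injected into the pancreas. One library, labelled KPC-shZEB1, came from cells carrying a stable lentiviral short hairpin RNA against Zeb1, a transcription factor of epithelial-mesenchymal transition, and the other, labelled KPC-shV, from cells carrying the control vector. Frozen sections were measured with a spatial assay in which RNA-templated probes are captured on barcoded spots, each covering a small tissue area that can hold several cells. The knockdown was made in the injected cancer cells, of which the methods describe several stable lines without saying which was injected here, and stroma, vessels and immune cells came from the host mouse. The study's text says that the same tumors were taken from mice given gemcitabine, which the sample labels do not name, and its methods list several host strains and a common range of ages at purchase without giving the strain or age for this assay. The labels mention 2 tumors per condition, but there was 1 library per condition and it is not stated which tumor or tumors it covered. The comparison therefore has no replicates, no test between conditions was possible, and every interval below is a 95% interval for counting error alone.

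CXCL16 is made as a membrane-bound protein in which a chemokine domain sits on a mucin-like stalk. In that form it can hold and activate cells that carry CXCR6, and once ADAM10 or ADAM17 cuts the stalk it is released as a soluble attractant. Macrophages, dendritic cells, endothelium and many carcinomas make CXCL16, while CXCR6 is known from effector and resident memory T cells, NKT cells and innate lymphoid cells. The assay reads transcripts, so it does not show which form of the protein was present.

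On the GRCm38 assembly, Cxcl16 (ENSMUSG00000018920) lies on the minus strand of chromosome 11 from 70453983 to 70459984, and Cxcr6 (ENSMUSG00000048521) on the plus strand of chromosome 9 from 123806475 to 123811760. Adam10 (ENSMUSG00000054693) is also on the plus strand of chromosome 9, from 70678997 to 70780229, and Adam17 (ENSMUSG00000052593) is on the minus strand of chromosome 12, from 21323509 to 21373632. The Cxcr6 gene lies inside Fyco1 on the opposite strand, Cxcl16 overlaps Zmynd15 at its 5′ side, and Adam17 overlaps Iah1. The probe sequences were not analysed here, so it was not tested whether a probe could report an overlapping neighbor. Probe number and efficiency differ between genes, and for that reason each gene was compared with itself between spots or libraries. The exceptions are Cxcr6 beside genes not expected in this tissue and Cxcr6 per Cd3 transcript, whose absolute values depend on the probes of each gene.

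The 2 libraries held 140493626 and 172059528 unique molecular identifiers (UMIs) over 2220 KPC-shZEB1-labelled spots and 3552 labelled KPC-shV. Digestive enzyme genes of exocrine acini made up over 20% of the UMIs in 34.4% of the KPC-shZEB1-labelled spots and in 7.66% of KPC-shV-labelled ones. Because such spots lower the share of every other gene, levels are given in counts per 1000000 UMIs (CPM) over the remaining 1456 and 3280 spots, with 85255965 and 165209904 UMIs, unless stated otherwise. In these spots the median gene of 14370 with at least 100 UMIs per library stood at log2 -0.015 (KPC-shZEB1 over KPC-shV), against -0.48 over all spots. In the same spots Zeb1 itself was not lower in the KPC-shZEB1-labelled library, at 15.6 CPM against 12.7 CPM in the KPC-shV-labelled one. Over all spots it measured 10.8 against 12.4 CPM (log2 -0.20, or 0.28 relative to the median gene). Spots hold host cells beside the injected ones, so these sums cannot check the knockdown. Each library is therefore named here only by its label. Epithelial keratins, Epcam and Cdh1, used here as markers of carcinoma cells, summed to 5836 and 6405 CPM outside acinar-rich spots. As genes of the epithelial state they may themselves depend on Zeb1, and they can miss tumor cells that have left that state. The libraries shared 1718 spot barcodes, which come from the fixed positions of the capture slide and not from shared cells.

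Cxcl16, the ligand, was present at almost the same level in both libraries. It measured 482 CPM (477.4 to 486.7, 41095 UMIs) in the KPC-shZEB1-labelled library and 463.3 CPM (460.0 to 466.6, 76535 UMIs) in the KPC-shV-labelled one, a log2 ratio of 0.057 (0.040 to 0.075). This difference, although outside counting error, put Cxcl16 at the percentile 57.8 of all genes, and over all spots its sign turned to -0.58 and to -0.095 relative to the median gene. The ligand was spread widely, with at least 1 UMI in 99.2% of the KPC-shZEB1-labelled spots and 95.8% of KPC-shV-labelled ones. Spots at the 5th and 95th percentile held 128 and 855 CPM in the first library and 82.6 and 794 CPM in the second, around medians of 438 and 436 CPM. The 2 distributions over spots therefore overlapped along almost their whole range. Acinar-rich spots were low in Cxcl16, at 17.1 and 33.6 CPM.

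Cxcr6, the receptor, was the member that differed most between the libraries. It measured 5.29 CPM (4.81 to 5.80, 451 UMIs) in the KPC-shZEB1-labelled library and 1.64 CPM (1.45 to 1.85, 271 UMIs) in the KPC-shV-labelled one, a ratio of 3.22 or 1.69 on the log2 scale (1.47 to 1.91). Of the 14370 genes, 4.91% were higher by log2 1 or more and 2.01% lower by as much, and Cxcr6 was the only member past either mark, at the percentile 98.8. Over all spots the log2 ratio was 1.07 (0.85 to 1.29), or 1.55 relative to the median gene. Transcripts of T cells differed by more than the receptor did: the summed level of Cd3d, Cd3e and Cd3g, CD3 chains of the T cell receptor complex, was 79.4 CPM in the KPC-shZEB1-labelled library and 13.7 CPM in the KPC-shV-labelled one, a log2 ratio of 2.54. Macrophage markers (C1qa, C1qb, C1qc, Adgre1, Csf1r, Cd68 and Mrc1) summed to 2622 and 1706 CPM, a log2 ratio of 0.62. In tissue spots, more T cells and more Cxcr6 RNA per T cell cannot be told apart from Cxcr6 alone.

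The Cxcr6 signal was sparse, most of all in the KPC-shV-labelled library. There 252 of 3280 spots (7.68%) held any Cxcr6 UMI and 235 of these held exactly 1, whereas 345 of 1456 spots (23.7%) labelled KPC-shZEB1 held one, up to 5 UMIs in a spot. When each spot was thinned to 20000 UMIs, leaving out 52 and 618 shallower spots, Cxcr6 was seen in 8.97% of KPC-shZEB1-labelled spots (126 of 1404, exact binomial interval 7.53 to 10.6%) and 3.57% of KPC-shV-labelled ones (95 of 2662, 2.90 to 4.35%). These intervals did not overlap. At the same depth Cxcr6 was seen in 3 of 746 (0.402%) and 3 of 161 (1.86%) acinar-rich spots. As a measure of stray signal, 12 genes of retina, sperm, heart atrium, kidney, lung and thyroid ranged from 0.504 to 1.99 CPM with a median of 1.02 in the KPC-shZEB1-labelled library, and from 0.514 to 2.87 CPM with a median of 0.847 in the KPC-shV-labelled one. None of the 12 reached Cxcr6 in the first library, and 2 of 12 did in the second, so the receptor's level in the KPC-shV-labelled library was within the range of stray signal.

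The sheddases differed little and in opposite directions. Adam10, which performs most constitutive cleavage of CXCL16, measured 198.1 CPM (195.1 to 201.1) in the KPC-shZEB1-labelled library and 216.5 CPM (214.3 to 218.8) in the KPC-shV-labelled one, a log2 ratio of -0.13 (-0.16 to -0.10). Adam17, the protease of stimulated shedding that also releases TNF, measured 123.1 CPM (120.8 to 125.5) and 100.2 CPM (98.7 to 101.8), so that it was higher by log2 0.30 (0.26 to 0.33). Over all spots Adam10 kept its sign at -0.64, while Adam17 turned to -0.29, which relative to the median gene were -0.16 and 0.19. Neither reached log2 1. Both proteases were found in most spots, without thinning Adam10 in 99.4% and 95.2% and Adam17 in 98.4% and 90.6%. After thinning to 20000 UMIs the shares were 96.9% and 98.6% for Adam10 and 90.3% and 85.6% for Adam17. The order of the libraries for Adam10 thus changed with depth.

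**Figure D1:**
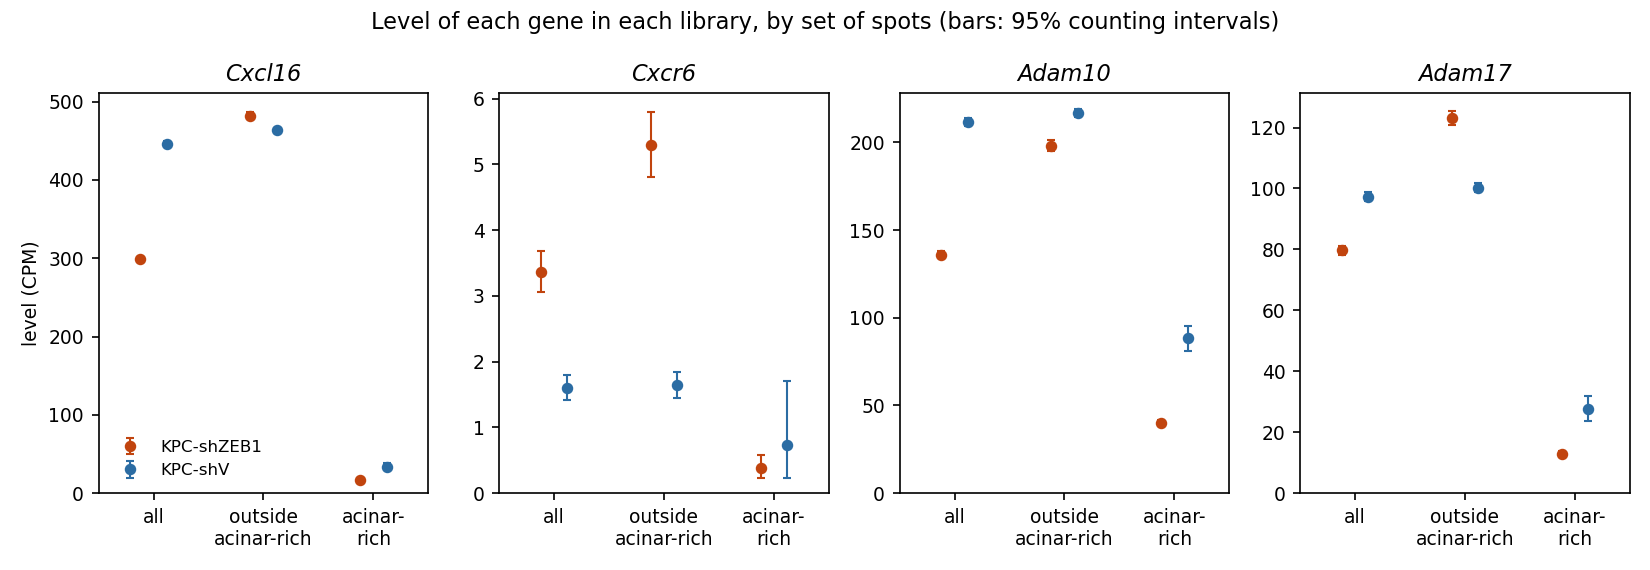
Levels of the 4 genes in CPM in each library, with 1 point per library and spot set and bars for the 95% Poisson interval. Outside acinar-rich spots Cxcl16 differed by 0.057 on the log2 scale and Cxcr6 by 1.69, and acinar-rich spots were low in every member.

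To see which spots held each gene, spots at or above the 90th percentile of a marker list over both libraries were compared with the other spots of their own library, for 14 lists of cell types and states that contain none of the 4 genes. A spot can be rich in several lists. The cuts of the CD8 T cell and islet lists were low, at 21.6 and 21.4 CPM, so the shallower spots reached them with very few UMIs. Cxcl16 was above the other spots in both libraries, with the interval away from 0, in 5 of the 14 types: interferon chemokine-rich, T cell-rich, CD8 T cell-rich, macrophage-rich and dendritic cell-rich spots. The interferon chemokine-rich spots, defined by Cxcl9 and Cxcl10, had the highest measured levels, with 625.4 against 431.8 CPM in 337 KPC-shZEB1-labelled spots (log2 ratio 0.53, 0.50 to 0.56) and 635.6 against 455.4 CPM in 137 KPC-shV-labelled spots (0.48, 0.44 to 0.52). In the first library their interval (615.0 to 635.9) overlapped that of dendritic cell-rich spots (592.7 to 635.3). T cell-rich spots, whose interval overlapped that of interferon chemokine-rich spots in the KPC-shV-labelled library, held 600.2 against 445.9 CPM (0.43, 0.40 to 0.46) and 623.3 against 460.9 CPM (0.44, 0.36 to 0.51). Their intervals overlapped those of dendritic cell-rich spots, at 613.7 CPM, in the first library but not in the second, where these held 537.2 CPM. In T cell-rich spots the median gene stood at -0.046 and 0.21, so Cxcl16 was at the percentile 84.8 and 59.2 of all genes. In the second library its ratio was thus not far from that of an ordinary gene. No such background was computed for the other types. Macrophage-rich spots, which hold one of the known sources of the ligand, had 594.4 CPM (0.33 above the others) and 531.2 CPM (0.21 above). The measured level of the ligand was thus highest in the types defined by chemokines, T cells and antigen-presenting cells, in both sections. For T cell-rich spots of the second library this holds for the level and not relative to all genes.

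Cxcl16 was below the other spots in both libraries in 4 types. B cell-rich spots held 404.3 and 389.5 CPM (log2 ratios -0.29 and -0.26), and proliferation-rich spots, defined by Mki67, Top2a, Birc5 and Cdk1, held 384.4 and 372.7 CPM (-0.37 and -0.35). Fibroblast-rich spots held 385.1 and 413.0 CPM (-0.34 and -0.17), the second of which turned to 0.099 with an 80th percentile in place of the 90th and to 0.042 without the shallow spots. Hypoxia-rich spots were low as well, at 311.2 and 399.3 CPM, although only 9 KPC-shZEB1-labelled spots were in this group. Spots rich in keratins, Epcam and Cdh1, the epithelial markers used for the tumor cells, did not differ clearly in one direction: they held 488.1 against 480.6 CPM (0.022, -0.013 to 0.058) and 422.4 against 466.1 CPM (-0.14, -0.19 to -0.099). Over 5 groups of spots ordered by the epithelial list, however, Cxcl16 was higher in the highest than in the lowest group by log2 0.24 (0.19 to 0.28) in the KPC-shZEB1-labelled library, against 0.0091 (-0.028 to 0.046) in the KPC-shV-labelled one. A further set took spots from the 80th percentile of the epithelial list that were at or under the median of the macrophage list. In these epithelium-rich, macrophage-poor spots Cxcl16 was 443.0 against 489.8 CPM in the other KPC-shZEB1-labelled spots (212 spots, -0.15, -0.18 to -0.11). In the KPC-shV-labelled library it was 436.4 against 468.5 CPM (564 spots, -0.10, -0.13 to -0.074). The ligand was thus below the other spots in both libraries. Macrophage genes were not absent there, at 1047 CPM in the KPC-shZEB1-labelled library. The ligand's RNA was therefore measured throughout the tumor, between 311.2 and 625.4 CPM over the types of the first library and between 372.7 and 635.6 CPM over those of the second.

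Cxcr6 was above the other spots in both libraries in 7 of the 14 types and below them in 1. In T cell-rich spots it measured 8.97 against 4.17 CPM (179 and 272 UMIs, log2 ratio 1.11, 0.83 to 1.38) in the KPC-shZEB1-labelled library and 6.58 against 1.57 CPM (16 and 255 UMIs, 2.07, 1.24 to 2.80) in the KPC-shV-labelled one. Beside these, 4.43% and 23.9% of all genes with at least 100 UMIs in the library were higher in T cell-rich spots by log2 1 or more, the second share coming from 106 spots with a median of only 17443.5 UMIs. Among those genes Cxcr6 stood at the percentile 96.7 and 96.8, Cxcl16 at 84.8 and 59.2. Dendritic cell-rich spots (10.6 and 3.79 CPM), macrophage-rich spots (9.85 and 4.29 CPM), B cell-rich spots (9.30 and 3.34 CPM), endothelial-rich spots (9.25 and 2.44 CPM) and fibroblast-rich spots (8.10 and 3.38 CPM) were also above the rest. Intervals of these 5 types overlapped one another and those of T cell-rich spots in each library, except that endothelial-rich spots lay below T cell-rich ones in the KPC-shV-labelled library, so their order cannot be read. T cell markers moved with each of them: of the macrophage-rich spots 61.4% and 15.5% were T cell-rich, and of the B cell-rich spots 49.4% and 15.3%. Beside these, 25.3% and 3.23% of all spots outside acinar-rich ones were T cell-rich. The part of T cell markers in the Cxcr6 level of these types was not tested.

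CD8 T cell-rich spots, defined by Cd8a and Cd8b1, held 6.77 against 4.79 CPM of Cxcr6 (0.50, 0.21 to 0.79) and 5.0 against 1.52 CPM (1.72, 1.10 to 2.28). Of these spots 41.0% and 8.94% were T cell-rich, beside 25.3% and 3.23% of all spots outside acinar-rich ones. Most of the KPC-shV-labelled ones were therefore not T cell-rich by the Cd3 genes. The type below the others in both libraries was the epithelial one, with 3.17 against 5.78 CPM in KPC-shZEB1-labelled spots (-0.87, -1.32 to -0.44) and 0.741 against 1.70 CPM in KPC-shV-labelled ones (-1.20, -2.43 to -0.20), the latter from 8 UMIs and under the median stray signal. In interferon chemokine-rich spots, where the ligand had its highest measured level, Cxcr6 was 5.65 against 5.16 CPM in the KPC-shZEB1-labelled library, which did not differ beyond counting error (0.13, -0.18 to 0.43), but 4.28 against 1.52 CPM in the KPC-shV-labelled one (1.49, 0.90 to 2.04). B cell-rich spots showed the reverse pairing, being low in the ligand and high in the receptor in both libraries. Ligand and receptor thus had 4 types in common in which both were above the other spots in both libraries. These were the types defined by the T cell, CD8 T cell, macrophage and dendritic cell lists.

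The sheddases varied less over spot types. Adam10 was neither above nor below the other spots of both libraries in any of the 14 types, with log2 ratios from -0.18 to 0.15 in the KPC-shZEB1-labelled library and from -0.024 to 0.18 in the KPC-shV-labelled one. Adam17 was above in both in macrophage-rich spots (134.0 against 122.2 CPM and 114.3 against 99.5 CPM) and below in both in epithelial tumor-rich spots (115.8 against 124.8 CPM and 92.9 against 100.8 CPM). These sets of Adam17 changed with the percentile that defined a type. Its highest ratio, 0.33 (0.26 to 0.39), was in interferon chemokine-rich KPC-shZEB1-labelled spots, the type with the highest measured Cxcl16 level.

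**Figure D2:**
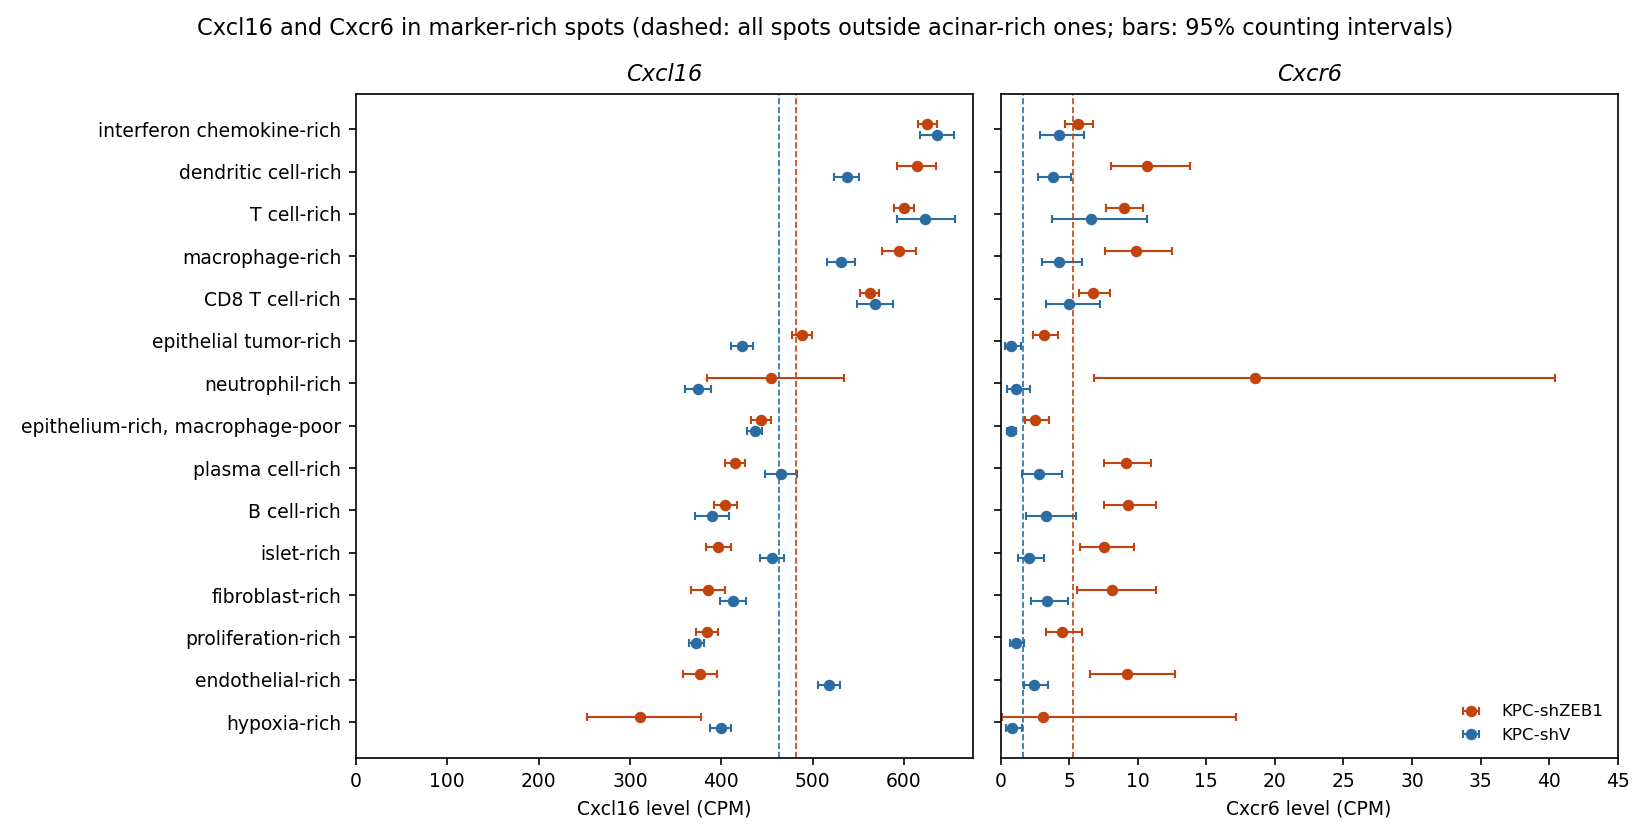
Levels of Cxcl16 and Cxcr6 in CPM in marker-rich spots, for 14 marker lists and for epithelium-rich, macrophage-poor spots, with 1 color per library. Bars give the 95% counting interval and dashed lines the level over all spots outside acinar-rich ones. Cxcl16 had its highest measured levels in interferon chemokine-rich spots (625.4 and 635.6 CPM). Cxcr6 measured 8.97 and 6.58 CPM in T cell-rich spots and 3.17 and 0.741 CPM in epithelial tumor-rich spots.

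The libraries were also compared within the same kind of spot, which does not make the cell composition of the spots equal. Within the 14 types, Cxcl16 was higher in the KPC-shZEB1-labelled library in 4 and lower in 5, with intervals away from 0. In T cell-rich spots its log2 ratio was -0.054 (-0.13 to 0.024), in macrophage-rich spots 0.16, in epithelial tumor-rich spots 0.21 (0.16 to 0.26) and in epithelium-rich, macrophage-poor spots 0.022 (-0.023 to 0.066). The macrophage value turned to -0.0194 with an 80th percentile. The epithelium-rich, macrophage-poor set starts at the 80th percentile of the epithelial list, so it is not a part of the epithelial tumor-rich spots. Because the epithelial genes may depend on Zeb1, both sets need not select the same tumor cells in each library. Whether they did was not tested. Endothelial-rich spots had the ratio farthest below 0 among the 14 types, at -0.46. Cxcl16 therefore showed no common direction between the libraries across spot types.

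Cxcr6 was higher in the KPC-shZEB1-labelled library within 10 of the 14 types and lower in none. Of those 10 types, the plasma cell, endothelial, islet, proliferation, neutrophil and epithelial tumor ones had KPC-shV-labelled levels of 0.741 to 2.77 CPM. These lay within the range of stray signal of that library (0.514 to 2.87 CPM). The neutrophil type held 6 UMIs in 12 KPC-shZEB1-labelled spots and 8 UMIs in 462 KPC-shV-labelled ones. The Cxcr6 log2 ratio was 1.20 (0.60 to 1.82) in macrophage-rich, 1.49 in dendritic cell-rich and 1.48 in B cell-rich spots. It was 2.10 in epithelial tumor-rich spots, over a KPC-shV-labelled level of 8 UMIs that lay under the median stray signal. T cell transcripts were not equal within these types. The summed Cd3 genes held 186.1 against 61.6 CPM in macrophage-rich and 198.3 against 35.6 CPM in dendritic cell-rich spots. In B cell-rich spots they held 151.8 against 46.5 CPM, and in epithelial tumor-rich spots 49.6 against 3.06 CPM. Their part in the Cxcr6 ratios was not tested. The Cxcr6 ratio was lower and within counting error in a further set. It was 0.45 (-0.29 to 1.28) in T cell-rich, 0.44 (-0.15 to 1.07) in CD8 T cell-rich and 0.40 (-0.18 to 1.02) in interferon chemokine-rich spots. Adam10 was lower in the KPC-shZEB1-labelled library in 11 types and higher in none, and Adam17 was higher in 8 and lower in none.

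Whether the receptor followed the ligand from spot to spot was examined in spots of at least 20000 UMIs, which were ordered by their Cxcl16 level and divided into 5 groups of equal size. In the KPC-shZEB1-labelled library, Cxcl16 measured 198, 335, 447, 572 and 791 CPM in the groups from lowest to highest. Cxcr6 in the same groups was 3.49, 5.15, 5.46, 5.71 and 6.03 CPM, from 48, 87, 96, 105 and 108 UMIs. The receptor was lowest in the group poorest in ligand, with an interval (2.57 to 4.63) that overlapped those of the next 2 groups, and the other 4 groups overlapped one another. In the KPC-shV-labelled library, Cxcl16 measured 211, 356, 461, 565 and 744 CPM and Cxcr6 0.951, 1.29, 1.03, 1.94 and 2.75 CPM, from 30, 40, 34, 64 and 85 UMIs. Here the first 3 groups overlapped and the highest stood above them. All of these KPC-shV-labelled Cxcr6 levels lay within the range of stray signal of that library (0.514 to 2.87 CPM). From the lowest to the highest group the receptor differed by log2 0.79 (0.29 to 1.31) in the first library and 1.53 (0.92 to 2.18) in the second.

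Other transcripts moved along the same order. The summed Cd3 genes went from 46.2 to 126 CPM in the KPC-shZEB1-labelled library (log2 1.45) and from 8.53 to 23.7 CPM in the KPC-shV-labelled one (1.47). The interferon-induced chemokines Cxcl9 and Cxcl10, which draw CXCR3-bearing T cells, differed by 2.84 and 2.22 on the log2 scale, the macrophage list by 0.49 and 0.98 and the epithelial list by 0.54 and 0.12. Adam17 also moved with the ligand, from 102 to 138 CPM (0.44) and from 86.4 to 110 CPM (0.35), while Adam10 was 190 and 202 CPM (0.084) and 229 and 219 CPM (-0.060) in the lowest and highest group. The part of T cell, macrophage, epithelial or chemokine content in the Cxcr6 difference was not tested. Ordering the spots by the macrophage list instead gave a Cxcr6 difference of 1.88 and 2.22, and by the T cell list 1.49 and 1.45, each with Cxcl16 differences of 0.52 and 0.50 and of 0.73 and 0.31.

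**Figure D3:**
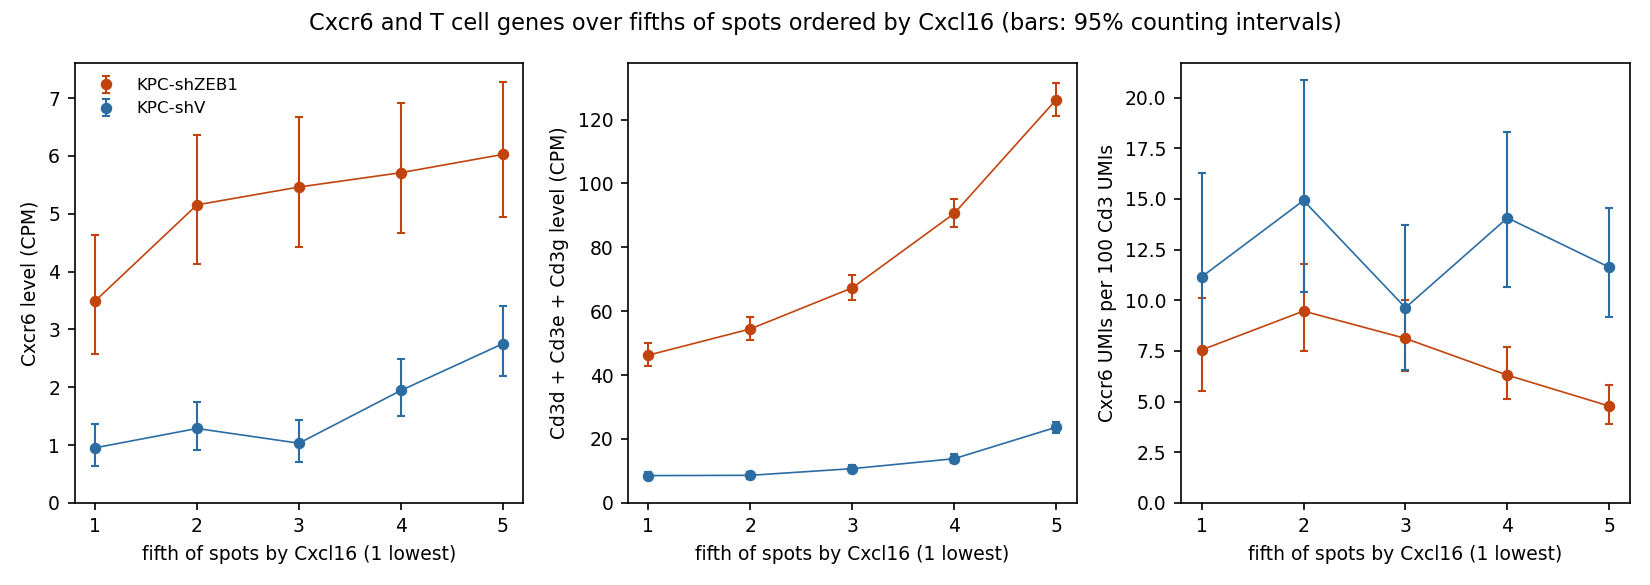
Cxcr6 in CPM and per 100 UMIs of Cd3d, Cd3e and Cd3g over 5 groups of spots ordered by Cxcl16, with 1 line per library and bars for the 95% counting interval. Cxcr6 went from 3.49 to 6.03 CPM in the KPC-shZEB1-labelled library and from 0.951 to 2.75 CPM in the KPC-shV-labelled one, while its level per Cd3 UMIs did not increase steadily in either. The KPC-shV-labelled levels in CPM lay within the range of stray signal of that library.

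Set against T cell transcripts, the receptor showed no steady increase with the ligand in either library. Per 100 Cd3 UMIs, Cxcr6 gave 7.55, 9.47, 8.11, 6.30 and 4.77 UMIs over the 5 KPC-shZEB1-labelled groups, and 11.2, 14.9, 9.63, 14.1 and 11.6 over KPC-shV-labelled ones. In the first library the highest group had the lowest ratio. The second showed no order, and the intervals of its lowest and highest group (7.38 to 16.3 and 9.18 to 14.6) overlapped. An increase there could not be told from none. Over all spots outside acinar-rich ones the ratio was 6.66 (6.05 to 7.33) in the KPC-shZEB1-labelled library and 12 (10.5 to 13.6) in the KPC-shV-labelled one. Spots that were not T cell-rich gave 9.34 (8.22 to 10.6) and 13.9 (12.2 to 15.9). T cell-rich spots, which are chosen on the denominator, gave 4.64 (3.97 to 5.40) and 3.73 (2.11 to 6.13) with overlapping intervals. They held 3855 of 6767 Cd3 UMIs in the KPC-shZEB1-labelled library and 429 of 2259 in the KPC-shV-labelled one. The ratio over all spots therefore also reflects how Cd3 UMIs were divided between these 2 kinds of spot. Stray signal enters both parts of this ratio and weighs more where counts are low, as in the KPC-shV-labelled library.

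Splitting spots of like T cell content at their median Cxcl16 gave no difference beyond counting error for the first library. In T cell-rich KPC-shZEB1-labelled spots, Cxcr6 was 9.05 CPM in the part richer in Cxcl16 and 8.39 CPM in the poorer part (log2 0.11, -0.34 to 0.56), and in the remaining spots 4.33 and 4.04 CPM (0.10, -0.25 to 0.46). The T cell list itself was higher in the parts richer in Cxcl16, by log2 0.22 and 0.57. In the KPC-shV-labelled library the T cell-rich spots gave 12.2 and 4.57 CPM from only 11 and 4 UMIs (1.42, -0.34 to 3.52), and the remaining spots 1.88 and 1.13 CPM (0.73, 0.34 to 1.13). In those remaining spots both Cxcr6 levels lay within the range of stray signal of that library, and the T cell list differed by 0.83. With 3 levels of the T cell list in place of that split, the Cxcr6 differences from the lowest to the highest level were 0.25, 0.22 and 0.14 in the first library, all with intervals that held 0, and 0.63, 0.60 and 0.86 in the second, of which only the last was away from 0 (0.33 to 1.40). In the second library the lowest level held 0 Cd3 UMIs and the middle level 63 and 51, so tied spots were divided in file order. In its highest level the T cell list still differed by 0.31 (0.18 to 0.44) and the macrophage list by 0.55. With 3 levels of the macrophage list, the Cxcr6 differences were 0.51, -0.21 and 0.18 in the first library, again with intervals that held 0, and -0.076, 0.71 and 0.73 in the second, of which the last 2 were away from 0. For both lists, the KPC-shV-labelled Cxcr6 levels behind these differences lay within the range of stray signal. The exception was the part richer in Cxcl16 of the highest level of each list, at 3.36 CPM. Without such levels, over spots that were not B cell-rich, Cxcr6 was higher in the part richer in Cxcl16 in both libraries, by 0.43 (0.12 to 0.75) and 0.91 (0.52 to 1.31), and there the T cell list differed by 0.99 and 1.05. The KPC-shV-labelled Cxcr6 levels there, 2.05 and 1.09 CPM, again lay within the range of stray signal. Whether the libraries differ in this respect was not tested. After thinning, Cxcr6 was seen in 5.05% of the KPC-shV-labelled spots at or above the median Cxcl16 and in 1.86% of those below it, while another random draw gave 3.95% and 1.97% and thinning to 5000 UMIs 0.835% and 0.754%, with overlapping intervals at that depth. For the KPC-shZEB1-labelled library the shares were 9.93% and 8.01%, and the other draw gave 9.64% and 10.8%, so no order can be read there.

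Across spots, Pearson correlations of depth-corrected residuals between Cxcl16 and Cxcr6 were 0.085 over the 1456 KPC-shZEB1-labelled spots and 0.095 over the 3280 labelled KPC-shV. As spots of a section share its library and tissue, these are descriptions only, and at these counts such weak values are not a finding. Cxcr6 stood at rank 2107 and 1403 among 14369 genes by its correlation with Cxcl16. Adam17 stood nearer, with 0.26 and 0.13 at rank 338 and 848, and Adam10 farther, with 0.044 and -0.0086. The order of Cxcr6 and Adam17 depends on the measure. Over 40 groups of like spots the KPC-shV-labelled library gave 0.74 for Cxcr6 and 0.34 for Adam17. By that measure Adam17, at 0.68, stayed nearer than Cxcr6 in the KPC-shZEB1-labelled library.

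The 10 genes most like Cxcl16, by the lower of its correlations in both libraries, were H2-Ab1, H2-DMb1, Cd74, H2-Aa, Litaf, Acp5, Ctss, Tmsb4x, Cxcl9 and Mpeg1, with correlations from 0.38 to 0.52. H2-Ab1, H2-Aa, H2-DMb1 and Cd74 encode class II antigen presentation, Ctss a lysosomal protease that trims the invariant chain, and Cxcl9 an interferon-induced chemokine. For Cxcr6 they were Trbc2, H2-Ab1, Cd74, H2-Eb1, Cd52, Serpina3g, Ctss, Cybb, Fcgr4 and H2-Aa, all weak at 0.16 to 0.22, with Trbc2, a constant region of the T cell receptor, in first place. The 2 sets shared 4 genes, H2-Ab1, Cd74, Ctss and H2-Aa. These names depend on the measure: with correlations over 40 groups of like spots, 1 of the 10 for Cxcl16 (Cxcl9) and 0 of the 10 for Cxcr6 remained.

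The other genes of the axis were taken from lists of related function, which were chosen with earlier results of these data known. Of 22 genes that assist, compete with or inhibit the sheddases, 20 had at least 100 UMIs in each library, none was higher by log2 1 in the KPC-shZEB1-labelled library and 1 was lower, close to the 4.91% and 2.01% of all genes, with a median of -0.14 against -0.015 over all genes. The lower one was Adam12, another membrane protease, at 46.0 against 102 CPM (-1.15). Rhbdf1 and Rhbdf2, the iRhom proteins that bring ADAM17 to the surface, had log2 ratios of -0.30 and -0.35, and their partner Frmd8 -0.33. The tetraspanin genes Tspan5 (24.1 against 12.9 CPM, 0.90) and Tspan15 (53.9 against 34.2 CPM, 0.65), whose products bind ADAM10 and steer its substrates, were higher, while Tspan14, of the same group, was -0.17. Timp3, an inhibitor of both sheddases, was higher at 523.6 against 373.1 CPM (0.49), and Furin, which removes their prodomains, lower at -0.46. Regulators of both proteases thus lay on either side of 0.

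Genes of resident and memory T cells, the population best known for CXCR6, were mostly higher in the KPC-shZEB1-labelled library, with 9 of 17 past log2 1 and none lower by as much, against 4.91% and 2.01% of all genes, and a median of 1.04 against -0.015. Itgae, the CD103 integrin chain that holds T cells to epithelium, was 3.87 against 0.95 CPM (2.03), Pdcd1 6.80 against 1.94 CPM (1.81), and Cd69, a retention marker, 7.47 against 3.04 CPM (1.30). Of the 9 genes, Itgae, Pdcd1, Tox and Ifng had KPC-shV-labelled levels of 0.95 to 2.02 CPM. These lay within the range of stray signal of that library (0.514 to 2.87 CPM), which limits their ratios. Gzma, which the study scored together with Cxcr6, was 10.5 against 7.19 CPM (0.55). Zfp683 and Prdm1 were at 0.81 and 0.18, and Havcr2 and Bhlhe40 were slightly lower, at -0.18 and -0.27. The highest of the list, Ccl5 (2.18), was below the log2 2.54 of the summed Cd3 genes. Because macrophages also use some of these genes, the list does not belong to T cells alone.

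Of 10 genes of innate-like lymphocytes, 9 had enough UMIs and 2 were past log2 1, against 4.91% of all genes. These were Ncr1 (1.52), a receptor of natural killer cells, and Cd226 (2.08), and the list median was 0.78. The KPC-shV-labelled levels of Ncr1 and Cd226, 0.80 and 0.74 CPM, lay within the range of stray signal of that library. Eomes (-0.59, -0.83 to -0.35) and Il18r1 (-0.32, -0.47 to -0.17) of the same list were lower. Among 12 genes of the interferon-gamma and TNF response, through which Cxcl16 is known to be induced, 5 were past log2 1, against the same 4.91%, and the median was 0.90. The interferon targets Gbp2 (1.56) and Gbp3 (1.19) were higher, whereas the NF-kappa-B targets lay on both sides of 0, with Nfkbia (-0.35) and Tnfaip3 (-0.24) lower and Icam1 (0.71) and Relb (0.11) higher.

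The medians of the other chemokine ligands and receptors were above the ratio of Cxcl16. Of 29 other chemokine ligands, 27 had enough UMIs, and 9 were higher and 3 lower by log2 1, against 4.91% and 2.01% of all genes, with a median of 0.54. The highest was Xcl1 (2.43), the attractant of cross-presenting dendritic cells, and the lowest were the neutrophil attractants Cxcl1 (-1.52) and Cxcl5 (-1.47). Of 22 other receptors, 20 had enough UMIs and 6 were higher, none lower, by log2 1, against the same shares, with a median of 0.89. Cxcr3, the receptor for Cxcl9 and Cxcl10, was 4.0 against 1.28 CPM (1.65), beside 1.69 for Cxcr6, and the receptors Ccr7, Ccr6 and Cxcr5, used in lymphoid follicles and T zones, were 1.63, 1.60 and 1.28. Cxcr6 was thus close to the highest of the chemokine receptors, with Xcr1 (1.73), of cross-presenting dendritic cells, above it and Ccr9 (1.66) and Cxcr3 below, and the intervals of these 4 overlapped. The KPC-shV-labelled levels of these 4 and of Ccr6 and Cxcr5, 0.82 to 1.64 CPM, lay within the range of stray signal. That limits their ratios and their order. Ccr7, at 5.50 CPM in that library, lay above the range.

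**Figure D4:**
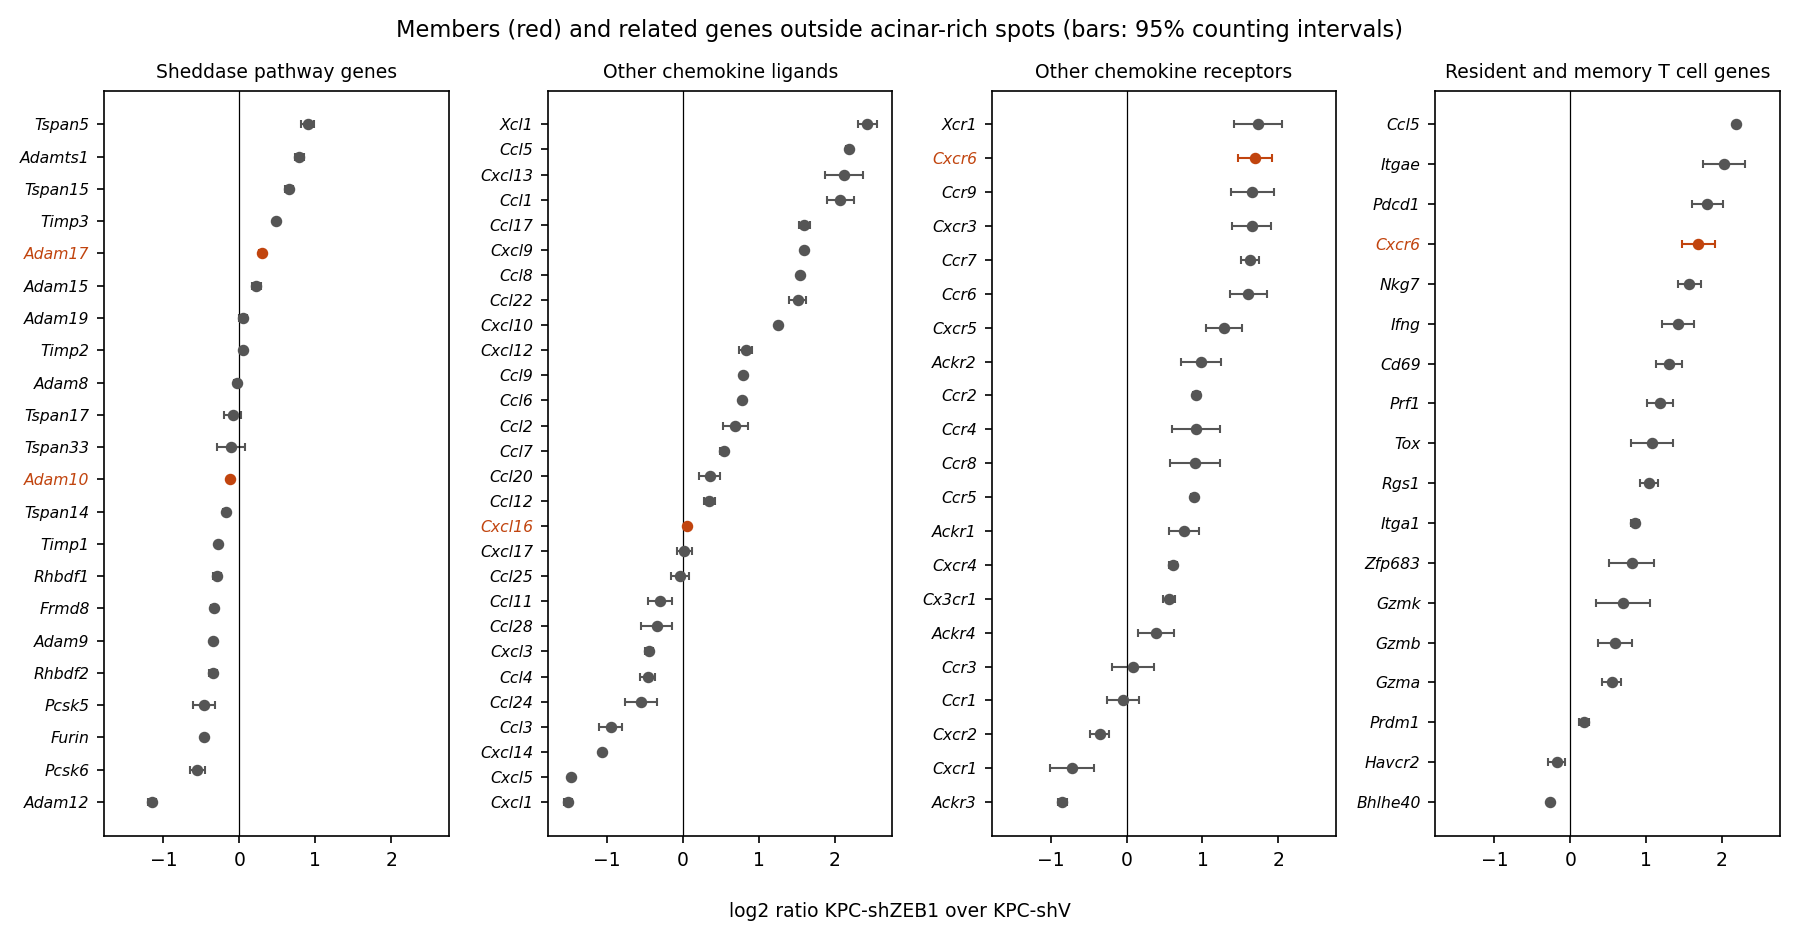
Log2 of the KPC-shZEB1 over the KPC-shV level outside acinar-rich spots for the 4 members and for genes of related lists. The lists are those of the sheddases, other chemokine ligands, other chemokine receptors, and resident and memory T cells. Across all 6 lists of the text, medians ran from -0.14 for sheddase genes to 1.04 for resident and memory T cell genes. Cxcl16 was at 0.057 and Cxcr6 at 1.69.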

How the data were processed

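Spatial gene expression was measured on 1 section library per condition with a probe-based assay for fresh-frozen tissue transferred to capture slides. The authors made the deposited counts, which are raw UMI counts per gene and spot on the mm10 genome, with Space Ranger 2.0.1 according to the submitters' processing notes, and no normalization was applied to them. Neither the images nor the spot positions were used. The 4 members and all lists were chosen with earlier results of these data known.

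Spots with over 20% of UMIs from 19 acinar genes (5 of the 24 listed are not in the probe set) were set aside. Krt18, Ccnb1 and Cxcl11 were likewise not in the probe set. Counts were summed over spots and divided by the summed UMIs (CPM), with exact Poisson intervals, exact conditional binomial intervals for ratios and Clopper-Pearson intervals for shares, all at 95%. Such intervals cover counting error only. A count of 0 allows up to 3 counts, or 0.0352 and 0.0182 CPM. Marker-rich spots lay at or above the 90th percentile of a list's share of UMIs over both libraries, and epithelium-rich, macrophage-poor spots at or above the 80th percentile of the one and at or under the median of the other. Correlations used analytic Pearson residuals with an overdispersion of 100. Named genes were the members, genes of fixed lists, described by counts and range with examples, and the 10 genes most correlated with Cxcl16 and with Cxcr6. With 1 library per condition no p-value was computed. The GENCODE M21 annotation of GRCm38, the assembly of mm10, gave gene positions by Ensembl ID. Doublets were not called, as a spot is not a cell. Python 3.11.15, numpy 2.4.6, scipy 1.17.1, scikit-learn 1.9.0 and matplotlib 3.10.9 were used, and the code was tested on simulated data. Alternatives covered the acinar limit, the marker percentile, spot filters, thinning depth, the number of groups and the correlation.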

Additional observations from a re-analysis of the deposited data

Results flagged for a closer look

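In 7 cases a member was above the other spots in one library and below them in the other, with both counting intervals away from 0. Differences between the libraries' log2 ratios (KPC-shZEB1 minus KPC-shV) are given as values, and none was tested. The widest was Cxcl16 in endothelial-rich spots, at -0.37 in the KPC-shZEB1-labelled library and 0.18 in the KPC-shV-labelled one, a difference of -0.55. Adam17 was at -0.28 and 0.098 in endothelial-rich spots, a difference of -0.38, and at -0.24 and 0.11 in fibroblast-rich spots, a difference of -0.35. Adam10 was at -0.18 and 0.12 in fibroblast-rich spots (difference -0.30), at -0.16 and 0.14 in plasma cell-rich spots (-0.29), at -0.16 and 0.12 in B cell-rich spots (-0.27) and at -0.084 and 0.18 in macrophage-rich spots (-0.27).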

How the results depend on the processing

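No paired analysis was possible because each condition had 1 library and the labels give no replicate numbers. With all spots the log2 ratios between libraries were -0.58 for Cxcl16 and -0.29 for Adam17, both turned in sign, 1.07 for Cxcr6 and -0.64 for Adam10. The small Cxcl16 ratio was 0.038 with an acinar limit of 40%, 0.083 without B cell-rich spots and 0.040 without the highest 5% of spots. Cxcr6 gave 1.42 as a mean over spots and 2.74 without the highest 5% of spots, which removes most KPC-shV-labelled spots that hold a UMI. With an 80th percentile for marker-rich spots, Cxcr6 was below in both libraries in 2 types, Adam10 above in both in 1, and Adam17 above in 2 and below in 0. With a 95th percentile Cxcl16 was lower in the KPC-shZEB1-labelled library in 3 types, Cxcr6 below in both in 0 and Adam17 below in 0. With a percentile set within each library Cxcl16 was higher in 7 types, Cxcr6 below in 2 and Adam17 above in 3, and without spots under 20000 UMIs Adam17 was above in 3. Among single types, Cxcl16 turned in fibroblast-rich KPC-shV-labelled spots (0.099 with the 80th percentile, 0.042 without shallow spots), between libraries in fibroblast-rich spots (0.33, 95th) and in macrophage-rich spots (-0.0194, 80th), Adam10 in B cell-rich KPC-shV-labelled spots (-0.012, 80th) and Adam17 between libraries in islet-rich spots (-0.045, 95th). With 10 groups the Cxcr6 difference along Cxcl16 was 2.29 in the KPC-shV-labelled library, and the other settings moved it by less than its interval in both libraries. Shares of spots with Cxcr6 were 2.20% and 0.804% at 5000 UMIs and 23.7% and 7.68% without thinning. Over 40 groups of like spots (5 to 261 spots each), correlations with Cxcl16 were 0.31 and 0.23 for Adam10, 0.68 and 0.34 for Adam17 and 0.74 for Cxcr6 in the KPC-shV-labelled library against 0.12 in the other, and 1 of the 10 genes most like Cxcl16 and 0 of those most like Cxcr6 were shared with the spot-level sets. Among the other values recomputed, 103 for the comparisons and 583 for single genes or spot types stayed within their limits, and 155 for single genes or spot types moved past them without turning. The causes of these changes were not tested. Cxcr6 rests on low counts, and no setting replaces a second tumor.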
